A study of Rattus norvegicus with 12 samples.

Results

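The genes described here are 7 genes of cholesterol synthesis, Hmgcs1, Idi1, Fdft1, Sqle, Lss, Dhcr7 and Insig1, in rats made deaf in 1 ear; the tissue was the inferior colliculus (IC), where sound pathways of the midbrain converge. They were taken by name, and each was read from the brightest probe listed with that gene symbol alone. Of the 7, 6 were measured, each by 1 probe, among 18166 genes in all; Hmgcs1, the synthase that makes the precursor of mevalonate, was not analysed here. Of the 6, 5 encode enzymes, and Insig1 encodes a membrane protein that regulates them.

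Sprague-Dawley (SD) rats had the right cochlea ablated (20 rats, single-sided deaf) or, as controls, a sham operation that opened the skin behind the ear and left the bulla undrilled (20 rats), and IC tissue was taken 2 weeks later. No further gene, drug or allele differs between the groups in the labels, which give neither age nor sex. Each side of the midbrain was hybridised separately, which gave 12 arrays, 3 each for left control, right control, left deaf and right deaf. Most input to the left IC comes from the ablated right ear, and most input to the right IC from the intact left ear. Whether tissue of 1 rat or of several went onto an array, and whether left and right arrays share rats, is not in the labels, so all p-values measure the spread between arrays, which may be technical. Some label fields name hippocampus, and those of the deaf arrays call them a noise group; sample titles and tissue fields name IC and deafness. Of 9 genes listed as IC markers, 6 lay above the median of all probes on every array, among them Tfap2d (mean log2 intensity 9.60) and Slc17a6 (9.75). Of the same list, Pou4f1 (5.22), Pax7 (5.37) and Slc6a5 (5.31) did not, and whether IC cells express these 3 was not tested. Of 9 hippocampal and forebrain markers 3 did, Prox1 (6.17), Bhlhe22 (5.76) and Fibcd1 (5.88). The others, among them Neurod6 (3.40) and Tbr1 (4.42), did not.

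Values are log2 intensities on 1-colour Affymetrix arrays, already comparable between arrays as deposited: every array had a median of 5.34, all values of the table lay between 1.33 and 13.1, and arrays correlated with each other at 0.982 to 0.993. A difference of 1 on this scale is a doubling. The distributions of the arrays were nearly the same, at most 0.0995 apart at any rank, and the number of arrays limits the precision. In bulk tissue, fewer cells of a type and less RNA per cell cannot be told apart. By marker genes, right control 3 had the highest level of cerebellar genes. Right control 1 had the highest levels of myelin, neuronal, IC, microglial and endothelial markers, and of Slc6a5 (7.23, at most 5.64 on the other arrays) and Slc17a7 (7.14, its highest value), transporters of glycine and glutamate.

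Cells build cholesterol from acetyl-CoA through mevalonate, isoprenoid units, squalene and lanosterol. The genes of this route share a feedback control: when sterols in the endoplasmic reticulum run low, the transcription factors of the sterol regulatory element-binding protein (SREBP) family are released and raise the whole set, and INSIG1, itself a target, holds them back when sterols are plentiful. The adult brain makes its own cholesterol because lipoproteins of the blood do not cross into it, and most of that cholesterol lies in myelin.

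All 6 measured genes had lower means in deaf than in control IC, on each side. The differences were small: the median over the 6 was -0.10 in the left IC, -0.12 in the right IC and -0.13 as the mean of both sides, and the largest single one, of Idi1 in the right IC or Lss in the left IC, was -0.25, about 16% less signal. Of all genes, 51.8% had lower means on the left and 49.5% on the right. None of the 6 passed the threshold. Idi1 separated the conditions: each of the 6 deaf arrays read below each of the 6 control arrays. Over all genes, 0.171% did so.

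Idi1 (Entrez 89784) encodes the isomerase that interconverts the pair of isoprenoid building blocks. Its log2 intensity was 6.98, 7.07 and 6.98 in left control, 6.90, 6.81 and 6.90 in left deaf, 7.24, 7.04 and 7.15 in right control and 6.88, 6.97 and 6.83 in right deaf arrays. Control arrays ran from 6.98 to 7.24 and deaf arrays from 6.81 to 6.97, so the conditions did not overlap. Deaf arrays all lay below control arrays for 0.171% of all genes. The closest pair for Idi1 was right deaf 2 (6.97) and left control 1 (6.98). The deaf minus control difference was -0.14 (SE 0.081, 95% confidence interval -0.32 to 0.033, n = 3 arrays per group) on the left, -0.25 (SE 0.081, interval -0.43 to -0.074) on the right and -0.20 (SE 0.057, interval -0.32 to -0.072) as the mean of both sides, that is 12.7% less signal. By limma, over all genes, its adjusted p was 0.998 for the mean of both sides.

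Fdft1 (Entrez 29580), squalene synthase, makes the first step committed to sterols. It read 9.32, 9.11 and 9.33 in left control, 9.05, 9.32 and 9.19 in left deaf, 9.35, 9.30 and 9.35 in right control and 9.08, 9.27 and 9.28 in right deaf arrays. The right groups did not overlap, by a margin set by right deaf 3 and right control 2, and the left groups did. On the right, 3.84% of all genes had every deaf array below every control array. The differences were -0.065 (SE 0.097) on the left, -0.12 (SE 0.097) on the right and -0.093 (SE 0.068, interval -0.24 to 0.056) as the mean of both sides. On the left the difference rested on 1 array: without left deaf 1 it was 0.0025. On the right it was -0.058 without right deaf 1.

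Sqle (Entrez 29230), squalene epoxidase, adds oxygen to squalene, a step at which sterol synthesis is regulated. Its values were the most even of the 6, from 8.22 on right control 3 to 8.42 on right control 1, a range of 0.19, and its residual SD of 0.064 was smaller than that of all but 4.46% of genes. It read 8.41, 8.33 and 8.33 in left control, 8.35, 8.35 and 8.30 in left deaf, 8.42, 8.39 and 8.22 in right control and 8.34, 8.25 and 8.28 in right deaf arrays. All 4 groups overlapped with their neighbours. The mean difference over both sides was -0.038 (SE 0.055), and its interval, -0.16 to 0.081, bounds a change at 10.3% less to 5.78% more signal. It was -0.068 without right control 3 and -0.020 without right control 1.

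Lss (Entrez 81681), lanosterol synthase, folds the oxidised squalene chain into lanosterol, the first sterol. It read 7.61, 7.72 and 7.51 in left control, 7.40, 7.22 and 7.46 in left deaf, 7.72, 7.37 and 7.48 in right control and 7.39, 7.53 and 7.44 in right deaf arrays. The left groups did not overlap, and the right groups did: right control 1 was the highest of all arrays and right control 2 the lowest of all but left deaf 2. On the left, 5.7% of all genes had every deaf array below every control array. The difference was -0.25 (SE 0.11, interval -0.49 to -0.021) on the left and -0.067 (SE 0.11, interval -0.30 to 0.17) on the right. The test of that contrast between sides, the side by deafness interaction, gave -0.19 (SE 0.15, limma adjusted p = 1.00), so the sides were not shown to differ. The interaction was -0.29 without right control 1 and -0.11 without right control 2. Without right control 1 the right difference was 0.034.

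Dhcr7 (Entrez 64191) encodes the reductase that makes cholesterol from its last precursor. It read 7.71, 7.53 and 7.73 in left control, 7.50, 7.38 and 7.46 in left deaf, 7.70, 7.56 and 7.89 in right control and 7.56, 7.58 and 7.69 in right deaf arrays. Left deaf lay below every other array of the series, so it separated from left control and from right deaf. Of all genes, 5.7% had left deaf wholly below left control. The difference was -0.21 (SE 0.097, interval -0.42 to 0.0027) on the left, -0.11 (SE 0.097) on the right and -0.16 (SE 0.068, interval -0.31 to -0.0094) as the mean of both sides. Without right control 3, its highest array, the right difference was -0.023 and the mean of both sides -0.12.

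Insig1 (Entrez 64194) encodes the sterol-sensing brake on SREBP release. It read 8.32, 8.24 and 8.35 in left control, 8.29, 8.29 and 8.18 in left deaf, 8.29, 8.46 and 8.77 in right control and 8.43, 8.23 and 8.45 in right deaf arrays. Both pairs of groups overlapped, and right control 3 stood apart above the next array, right control 2. The differences were -0.050 (SE 0.12) on the left, -0.14 (SE 0.12) on the right and -0.094 (SE 0.082, interval -0.27 to 0.085) as the mean of both sides. The left difference was -0.010 without left deaf 3. Without right control 3 the right difference was -0.0065 and the mean of both sides -0.028.

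**Figure D1:**
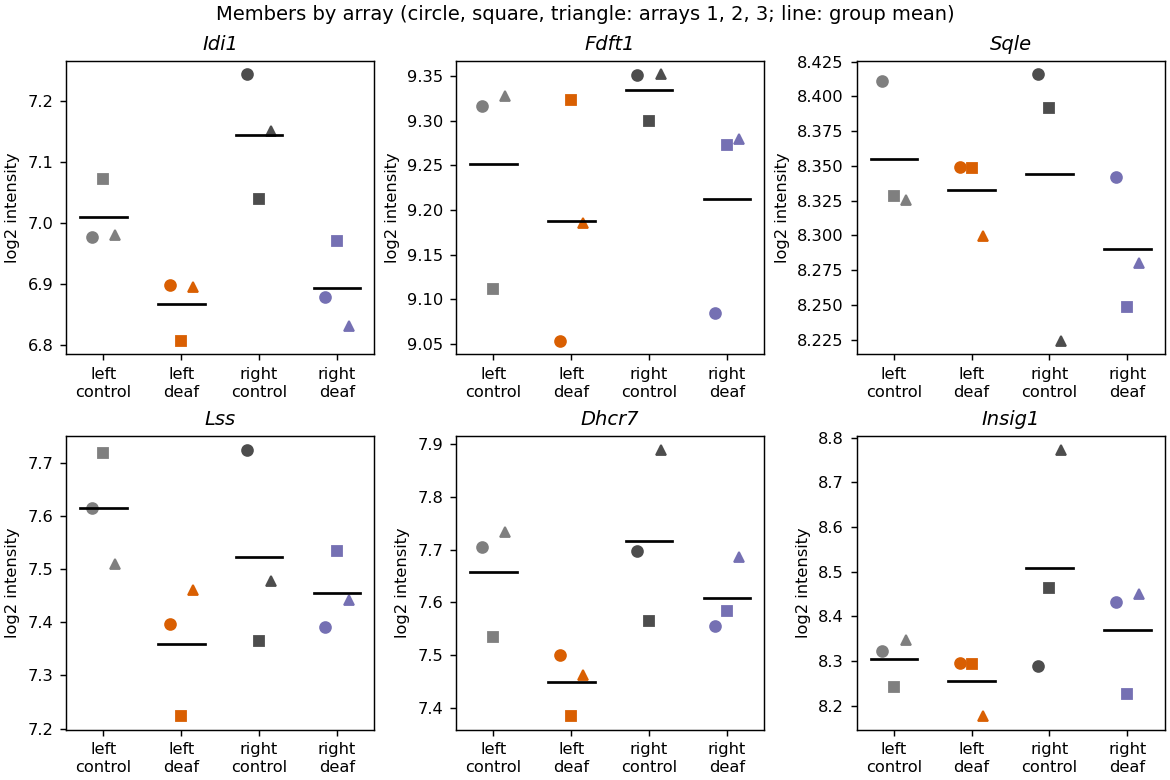
Log2 intensity (vertical axis, a scale of its own in each panel that does not start at 0) of the 6 measured genes on each of the 12 arrays, by group; symbols mark arrays 1, 2 and 3 and the line is the group mean of 3 arrays. Idi1 has all 6 deaf arrays below all 6 control arrays, left deaf is apart from left control for Lss and Dhcr7, and Insig1 has its highest value, 8.77, on right control 3. Deaf arrays lay below all control arrays for 0.171% of all genes over both sides and for 5.7% on the left.

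Counted over the genes, deaf arrays all lay below control arrays for 3 of 6 on the left (Idi1, Lss and Dhcr7), where 5.7% of all 18166 genes did so, for 2 of 6 on the right (Idi1 and Fdft1), where 3.84% did, and for 1 of 6 (Idi1) over both sides together, where 0.171% did. Both sides separately held for Idi1 alone, against 0.374% of genes. Of the 36 comparisons of a deaf array with the control mean of its side, 34 were lower, the exceptions being Fdft1 on left deaf 2 and Lss on right deaf 2. These counts are descriptions: the genes were chosen with earlier results of these data known.

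By limma, 0 of the 6 passed the adjusted threshold of 0.05 in any of the 6 contrasts. In each, 0% of the 18166 genes did. The limma adjusted p of each of the 6 was 1.00 for either side alone and 0.998 for the mean of both sides. At an unadjusted p under 0.05, 670 genes stood out on the left, 783 on the right and 823 for the mean of both sides; lower among these were 1.99%, 2.19% and 2.52% of all genes, and of the 6, Lss on the left, Idi1 on the right, and Idi1 and Dhcr7 for the mean of both sides. Lower means were shared by all 6 on each side, against 51.8% of all genes on the left, 49.5% on the right and 50.6% for the mean, with medians over all genes of -0.0051, 0.0014 and -0.0014.

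**Figure D2:**
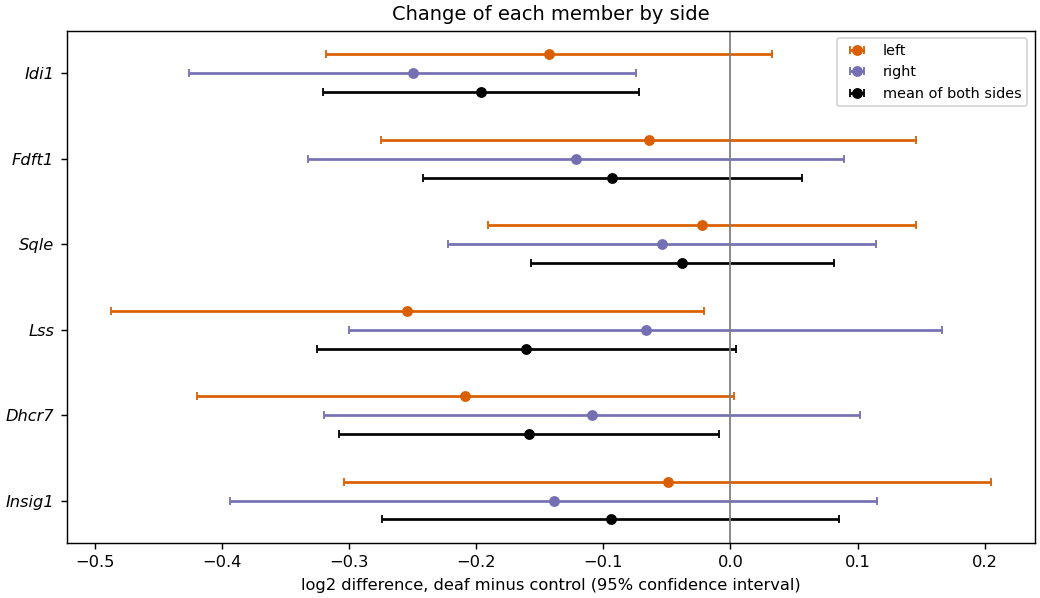
Log2 difference, deaf minus control (horizontal axis), of the 6 measured genes, with limma 95% confidence intervals as bars, for the left IC, the right IC and the mean of both sides. All 18 points lie below 0, and the intervals of Lss on the left, Idi1 on the right, and Idi1 and Dhcr7 for the mean of both sides do not reach 0; none passed after adjustment over all genes.

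The order of the group means was not the same for each gene. Right control was highest for Idi1, Fdft1, Dhcr7 and Insig1, and left control for Sqle and Lss. Left deaf was lowest for all but Sqle, whose lowest group was right deaf. Neighbours in these orders overlapped in their arrays, with 2 exceptions: Idi1 between left control (7.01) and right deaf (6.89), and Dhcr7 between right deaf (7.61) and left deaf (7.45). In control rats the left minus right difference was -0.20 (SE 0.12) for Insig1, -0.13 (SE 0.081) for Idi1 and 0.092 (SE 0.11) for Lss, with a median of -0.071 over the 6. With 1 array left out these differences ran from -0.31 (without right control 1) to -0.071 (without right control 3) for Insig1, from -0.19 (without right control 2) to -0.085 (without right control 1) for Idi1, and from 0.013 (without right control 2) to 0.19 (without right control 1) for Lss. In deaf rats it was -0.16 (SE 0.097) for Dhcr7, the largest of the 6, with a median of -0.061. That median was -0.026 without right deaf 2 and -0.086 without right deaf 1. The interaction had a median of 0.044, from -0.19 for Lss to 0.11 for Idi1. None of these passed by limma (adjusted p 0.934 or more), and each side contrast shares its arrays with the deaf against control contrasts.

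Over the 12 arrays the 15 pairwise Pearson correlations among the 6 genes had a median of 0.26, from -0.34 for Sqle and Insig1 to 0.70 for Idi1 and Lss, and 12 were above 0. Of the same 15 correlations between deviations from the group means, 7 were above 0, with a median of -0.13. Idi1 and Lss moved together in these deviations (0.89), as did Dhcr7 and Insig1 (0.59), whereas Lss and Insig1 went opposite ways (-0.60). All points share the same 12 arrays.

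The 250 bases before the RefSeq start site are shown for Idi1, Lss, Insig1 and Dhcr7, because these genes had lower means together and are textbook targets of SREBP, whose sites in promoters often lie near CCAAT boxes bound by NF-Y. The table of promoters is RefSeq's for build GRCr8 and held 4 of the 6; Fdft1 and Sqle were not in it. Each runs 5′ to 3′ on the gene's strand, in lower case, with capitals for CCAAT or its reverse complement ATTGG. The windows are chr17:66547525-66547774 (minus strand), chr20:12118231-12118480 (minus), chr4:8057770-8058019 (minus) and chr1:208444184-208444433 (plus).

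Idi1: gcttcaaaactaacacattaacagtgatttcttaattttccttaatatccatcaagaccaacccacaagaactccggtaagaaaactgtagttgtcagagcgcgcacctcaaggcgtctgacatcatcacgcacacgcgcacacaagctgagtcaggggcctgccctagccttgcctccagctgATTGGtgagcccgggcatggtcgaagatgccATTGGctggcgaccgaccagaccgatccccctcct
Lss: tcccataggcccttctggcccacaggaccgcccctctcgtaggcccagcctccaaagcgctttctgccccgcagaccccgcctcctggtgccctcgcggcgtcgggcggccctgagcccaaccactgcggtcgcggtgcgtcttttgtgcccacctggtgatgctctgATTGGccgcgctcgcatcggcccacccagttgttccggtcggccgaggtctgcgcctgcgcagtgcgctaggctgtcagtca
Insig1: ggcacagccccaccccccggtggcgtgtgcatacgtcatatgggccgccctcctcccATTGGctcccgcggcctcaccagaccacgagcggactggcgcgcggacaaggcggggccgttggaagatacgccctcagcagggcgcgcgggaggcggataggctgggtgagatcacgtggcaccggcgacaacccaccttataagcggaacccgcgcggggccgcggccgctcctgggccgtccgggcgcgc
Dhcr7: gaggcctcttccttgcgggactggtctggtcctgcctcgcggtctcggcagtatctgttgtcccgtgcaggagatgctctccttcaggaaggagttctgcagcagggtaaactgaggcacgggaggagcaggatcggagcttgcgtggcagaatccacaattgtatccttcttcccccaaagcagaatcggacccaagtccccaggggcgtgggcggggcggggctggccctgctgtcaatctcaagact

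Idi1 has ATTGG starting 66 and 35 bases before the start site, Lss at 82 and Insig1 at 193, and Dhcr7 has none in this window. So 3 of 4 hold the box, as do 9 of the 11 other measured enzymes with a promoter entry (all but Acat2 and Cyp51), against 34.0% of all 33469 windows. The GC box GGGCGG, bound by Sp1, is in 3 of 4 (Lss, Insig1 and Dhcr7) and in 10 of 11, against 30.5%. The sterol regulatory element as TCACNCCAC is in 0 of 4 and 0 of 11, and in 0.974% of all windows. Both strands were searched, none of the 3 motifs contains another, and the GC boxes of Dhcr7, at 39 and 34 bases, share 1 base. The windows of these 4 genes hold 52.8% (Idi1) to 72.8% (Insig1) G and C, where the median window holds 51.2%. A match of letters is a description, not a site.

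The other enzymes of the route also had lower means more often than higher ones. Of 12 measured, 9 were lower on the left, 8 on the right and 8 for the mean of both sides, with medians of -0.086, -0.067 and -0.087, and 0 passed by limma. Mvd, the decarboxylase that makes the substrate of Idi1, had the largest difference, -0.30 (SE 0.097, interval -0.51 to -0.087) for the mean of both sides. It read 6.02, 6.41 and 6.17 in left control and 6.06, 6.50 and 6.15 in right control arrays, and 5.77 to 6.06 on the deaf arrays. Left deaf 3, at 6.06, lay above left control 1, so the conditions overlapped.

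Msmo1, which removes methyl groups from lanosterol's products, read 9.48, 9.39 and 9.36 in left control, 9.45, 9.40 and 9.43 in right control, 9.25, 9.31 and 9.30 in left deaf and 9.27, 9.32 and 9.36 in right deaf arrays. All 6 deaf arrays lay below all 6 control arrays, right deaf 3 only just below left control 3, as held for 0.171% of all genes. Msmo1 was named for its small p, which favours such separation. Its difference was -0.12 (SE 0.050, interval -0.22 to -0.0083). Fdps, which builds farnesyl diphosphate for Fdft1, was at -0.13 (SE 0.068). In pathway order the measured steps from Mvd to Cyp51 had lower means, but the ends of this run were picked by the values. Over all genes, 50.6% had lower means for the mean of both sides. The 4 enzymes with means above 0, named after their values were seen, were the early steps Acat2 (0.010) and Pmvk (0.020) and the sterol reductases Tm7sf2 (0.044) and Lbr (0.059). Of all 17 measured enzymes, 13 had lower means over both sides, with a median of -0.12.

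**Figure D3:**
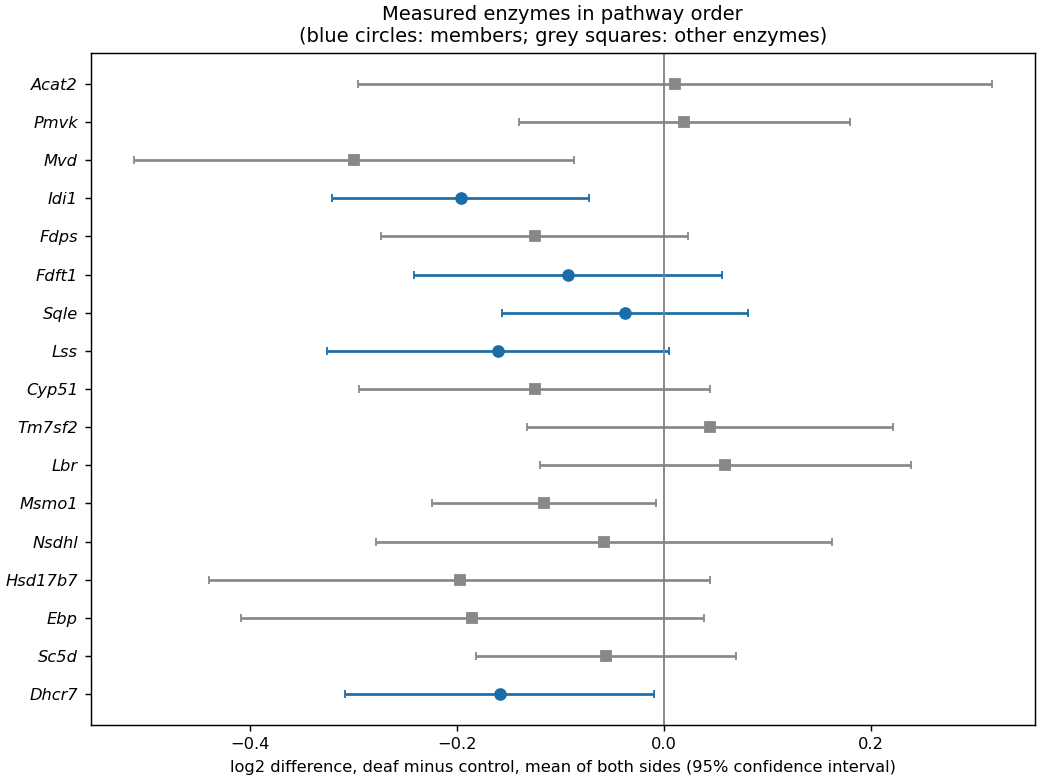
Log2 difference, deaf minus control, mean of both sides (horizontal axis), of the 17 measured enzymes of cholesterol synthesis, from the first step at the top to the last at the bottom, with limma 95% confidence intervals. Blue circles are 5 of the genes described here and grey squares the 12 other enzymes; 13 of 17 points lie below 0, and the intervals of Mvd, Idi1, Msmo1 and Dhcr7 do not reach it.

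The genes that control or use the route had medians nearer 0. Of 14 measured genes of SREBP control and sterol sensing, 9 had lower means over both sides, with a median of -0.0062. Srebf2, the factor that drives cholesterol genes, was at -0.0084 (SE 0.067, interval -0.15 to 0.14). The arrays measure its RNA, not the release of the factor described above. The smallest p-values in this list were those of Stard4, a sterol carrier (-0.17, SE 0.080), Ubxn8 (-0.10, SE 0.076) and Erlin2 (-0.083, SE 0.075).

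Of 17 genes of cholesterol transport, export and turnover, 10 were lower, with a median of -0.025. Lcat, which esterifies cholesterol on lipoproteins, was at 0.21 (SE 0.093), Ch25h, a cholesterol hydroxylase, at 0.25 (SE 0.14), and Abcg1, an exporter, at 0.088 (SE 0.067). Of 12 genes of fatty acid synthesis 8 were lower (median -0.041), with the desaturases Fads1 (-0.15, SE 0.072) and Fads2 (-0.086, SE 0.050) and the acetyl-CoA synthetase Acss2 (-0.11, SE 0.056) first by p. Side branches of the mevalonate pathway were even, 4 lower and 4 higher (median 0.0047), with Ggps1, which makes geranylgeranyl diphosphate, at 0.13 (SE 0.061), Nus1 at -0.086 (SE 0.066) and Coq2, of ubiquinone synthesis, at 0.097 (SE 0.080). By limma 0 genes of these 4 lists passed (adjusted p 0.998).

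Markers of other cells were summed up per array as a score: every gene's log2 value was centred on its own mean over the 12 arrays, and the genes of a list were averaged. The score of the 6 genes was -0.00076 to 0.14 on control arrays and -0.11 to -0.0068 on deaf arrays. Of 14 measured oligodendrocyte and myelin markers 12 had lower means in deaf IC for the mean of both sides (median -0.074), 10 on the left (-0.046) and 14 on the right (-0.11). The myelin score was -0.025 to 0.15 on control and -0.087 to 0.018 on deaf arrays. Cnp, a myelin enzyme (-0.23, SE 0.061), and Ugt8, which makes myelin galactolipids (-0.28, SE 0.073), had all 6 deaf arrays below all 6 control arrays. Over all genes 0.171% did so, and Cnp and Ugt8 were named for their small p, which favours such separation. Ermn, a myelin protein, was at -0.13 (SE 0.065). The part of myelin in the cholesterol result was not tested.

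All 5 measured endothelial markers had lower means in deaf IC for the mean of both sides (median -0.14), with scores of -0.10 to 0.28 on control and -0.28 to 0.10 on deaf arrays. Of 9 markers of meninges and fibroblasts, 9 had higher means on the left (median 0.38), 3 on the right (median -0.056) and 8 for the mean of both sides (median 0.084), with widely spread scores, -0.43 to 0.61 on control and -0.63 to 0.72 on deaf arrays. Lower means were counted for 7 of 9 astrocyte, 6 of 7 microglial, 2 of 7 neuronal and 5 of 9 IC markers, and for 2 of 4 of choroid plexus and ependyma. By limma 0 of these markers passed in either side or their mean, and their part in the cholesterol result was not tested.

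Of 9 cerebellar markers, 9 had lower means in deaf than control IC on the right (median -0.53) and 6 on the left (median -0.043). Forebrain markers had lower means in 9 of 9 on the right (median -0.16) and 5 of 9 on the left (median -0.013). Cerebellar markers were highest on right control 3 (score 0.83) and right control 1 (0.34) and lay at -0.27 to 0.081 on the other 10 arrays. The forebrain score was 0.18 to 0.30 on the right control arrays and -0.20 to 0.018 on all others. In the left IC the cerebellar scores of control (-0.17 to -0.0066) and deaf arrays (-0.19 to -0.032) overlapped, and the median difference of the 6 genes there was -0.10. Without right control 3 the median of the 6 was -0.10 on the right and for the mean of both sides. Without right control 1 it was -0.12 on the right and -0.13 for the mean of both sides, and Idi1 was at -0.20 and -0.17. The part of cerebellar or forebrain tissue in the right-side values was not tested.

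As a description over 12 arrays, the score of the 6 genes correlated at 0.63 with that of the other cholesterol enzymes, 0.74 with myelin markers, 0.67 with fatty acid synthesis, 0.76 with cerebellar markers and 0.74 with forebrain markers. Taken as deviations from the group means, these were -0.056, 0.23, 0.45, 0.78 and 0.44. Right control arrays weigh most in the 0.78, as the cerebellar average had an SD of 0.38 there, against 0.075 to 0.089 in other groups. The genes most like the score over the 12 arrays, of all named genes, were Omg, an oligodendrocyte myelin glycoprotein (Pearson r = 0.91), Sipa1 (0.90), Git1 (0.90), Tmprss5 (0.89), Tiam2 (0.89) and Cyp2j10 (0.88). By deviations from the group means they were Ptges2 (0.94), Cfap410 (0.94), Plekhm2 (0.93), St3gal4 (0.92), Rbbp4-ps2 (0.92) and Or51f4 (0.92). These are the extremes of a search over all genes and carry no test.

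**Figure D4:**
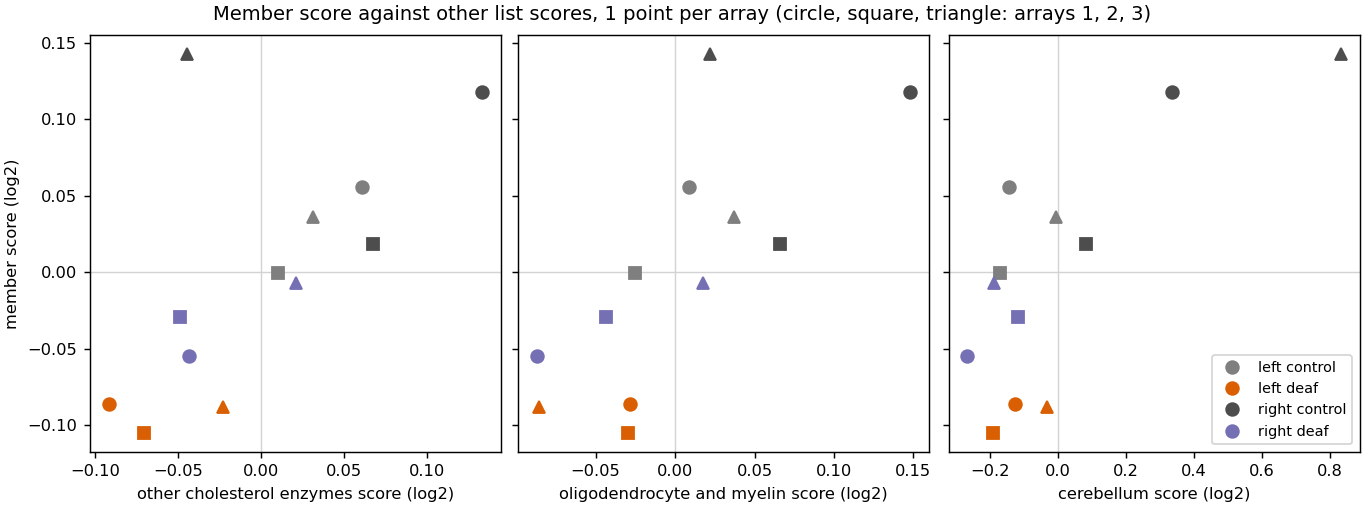
Score of the 6 genes (vertical axis, log2) against the scores of the other cholesterol synthesis enzymes, of oligodendrocyte and myelin markers and of cerebellar markers (horizontal axes, log2), 1 point per array; colours mark the 4 groups and symbols arrays 1, 2 and 3. Deaf arrays lie low on the vertical axis, and right control 3 is far to the right in the cerebellar panel, at 0.83.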

How the data were processed

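Total RNA of IC tissue was turned into biotin-labelled single-stranded cDNA and hybridised to 1-colour Affymetrix arrays, per the labels' protocols. The deposited values are log2 intensities that the authors had made comparable between arrays; for the software behind them, and for a genome build, the sources used here name nothing. The platform annotation gave 18511 of 29489 probes a single gene symbol, 575 more than 1 and 10403 no symbol. Only the first kind entered the fit, with the brightest probe of a gene by its mean over 12 arrays, with no filter on dim genes; all values of the 6 genes were 6.81 or higher. The Entrez identifiers of all 6 matched RefSeq under the same symbols. No 2 arrays were identical.

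A limma model (version 3.58.1, R version 4.3.3) took 4 group means over all 12 arrays (8 residual degrees of freedom), with 6 contrasts, two-sided tests and Benjamini-Hochberg adjustment over all 18166 genes at 0.05. Standard errors and 95% confidence intervals are those of limma's moderated fit. The fit was tested on simulated data first. Members, gene lists and naming rule were set with earlier results of these data known. Named from each list were the 3 genes of smallest p for the mean of both sides, with Srebf2 added, and the 6 genes most correlated with the member score. The alternatives were quantile normalization, median centring, a filter on dim genes, all probes, the mean of probes, a variance trend, array weights, fits to the compared groups alone, the replicate number as a block and leaving out each array. Left and right arrays of the same condition and number were compared by the correlation of their deviations from group means. It was over 0.1 for 2 of 6 pairs (-0.056 to 0.15), which cannot tell whether the arrays share rats. The labels do not say either, so the main fit did not pair them. If arrays share rats, the SE for the mean of both sides treats tissue of the same rats as independent.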

Additional observations from a re-analysis of the deposited data

How the results depend on the processing

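The number of called members was 0 under every alternative and contrast, with an adjusted p of 0.39 or more by limma. Of 780 differences of single genes under other settings, 761 kept their direction and 19 changed sign, none of them past the threshold. Many of the 780 could not change. For genes of 1 probe, the filter on dim genes, all probes and the mean of probes leave a difference as it was. So do the variance trend, fits to the compared groups and the replicate block, and leaving out an array of a group outside the contrast. The 761 therefore do not measure how firm the directions are. The median difference of the 6 genes stayed negative for deaf against control: with 1 array left out it was -0.12 to -0.097 on the left, -0.15 to -0.081 on the right and -0.15 to -0.10 for the mean of both sides. With the replicate number as a block (paired fits) no call of a member changed. The 3 medians were -0.10, -0.12 and -0.13, as in the main fit, because a block cannot change a difference in this balanced design. Only the SE and p could move. Left and right arrays had a consensus correlation of 0.036. Fits of only the groups compared were not made for the mean of both sides and the interaction, which use all groups.

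Array weights turned the control side differences of Dhcr7 (0.030) and Sqle (-0.0040) and moved the median there from -0.071 to -0.023. With 1 array left out that median ran from -0.12 to -0.0049, and that of the interaction from 0.0025 to 0.074. The single genes whose sign turned with 1 array left out had these ranges: Fdft1 -0.13 to 0.0025 on the left; Sqle -0.037 to 0.0059 on the left; Lss -0.15 to 0.034 on the right; in control sides Dhcr7 -0.14 to 0.027 and Sqle -0.049 to 0.047; in deaf sides Fdft1 -0.093 to 0.042 and Idi1 -0.058 to 0.012; in the interaction Fdft1 -0.013 to 0.12, Insig1 -0.043 to 0.20 and Sqle -0.0045 to 0.091. The causes were not tested.

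Over all genes, where the count was 0, the filter on dim genes and the variance trend each called 1 gene on the left (Vgf) and, for left minus right in deaf rats, 1 (Vgf) and 2 (Vgf and Or52a5b). The replicate block called 1 (RGD1565183) for control sides and for the interaction. With 1 array left out the counts were 0 to 1 on the left (Vgf, without left deaf 3) and 0 to 1 for the mean of both sides (Clec2d2, without right control 3). These genes were named after their values were seen. With 3 arrays per group, the 95% intervals for the mean of both sides span -0.33 to 0.085 over the 6 genes.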
